A study of Arabidopsis thaliana with 48 samples.

Results

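Untailed 3′ ends of pre-18S rRNA that lay between the A1 and A2 ends were followed in Arabidopsis seedlings. They were chosen by position alone: the 7 end positions from +14 to +20 of the study's rDNA reference, counted from the last base of mature 18S rRNA (the D site), and only reads with no added tail. They made up 7 of the 30 end positions in the files, and all 48 libraries were used. The libraries were made by 18S-ENDseq, which circularises RNA, amplifies across the junction of mature 18S molecules and their precursors and sequences it. The seedlings were 18 days old and of 4 genotypes, all in the Col-0 background: WT, hot3-2, dcl2 dcl4 (dcl2-1 dcl4-2) and hot3-2 dcl2 dcl4 (hot3-2 dcl2-1 dcl4-2). Each genotype was sampled as total extract, as nonpolysomal RNA and as polysomal RNA from sucrose gradients, with 4 libraries in each of the 12 groups, named below total, nonpolysome and polysome. The hot3-2 lines carry 1 T-DNA insertion allele of HOT3, so no second allele was sequenced in the libraries used here, and whole seedlings mix many cell types.

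HOT3 is one of the Arabidopsis eIF5B proteins, GTPases that join the large ribosomal subunit to the small one at the start of translation. In yeast, eIF5B also joins immature small subunits to large subunits, and this promotes the last cut of the small subunit rRNA at the D site by the endonuclease Nob1. Before that cut the 18S precursor keeps a stub of internal transcribed spacer ITS1 at its 3′ end. In Arabidopsis the longer stubs end at A2 (+21 and +22) and the shorter ones at A1 (+8 to +13), so the ends at +14 to +20 lie inside the spacer between the ends given a name. DCL2 and DCL4, which the double mutant lacks, are Dicer-like endonucleases that cut double-stranded RNA into siRNAs.

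The sequence around these ends is shown because 4 of the 7 ends fall in a run of A. It was read from RefSeq's TAIR10.1 genome, plus strand, at both annotated 18S rRNA genes, from -5 to +24 of the D site, with +14 to +20 in capitals.
AT2G01010 (chr2:5508-5537): tcattgtcgatacctgtccAAAACAGaacg
AT3G41768 (chr3:14199479-14199508): tcattgtcgatacctgtccAAAACAGaacg
The study's own rDNA reference was not available, so its D site was taken to be the last annotated base of either gene. On that match the members lie in ITS1, at chr2:5527-5533 and chr3:14199498-14199504, and what follows on their bases rests on it. The bases were the same at both loci: A at +14, +15, +16 and +17, C at +18, A at +19 and G at +20. The base before them, at +13, is C, and the bases after them, at +21 and +22, are both A. An A added to an end at +13 reads as template, so an untailed end at +14 to +17 cannot be told apart from an end at +13 that carried 1 to 4 added A. In the same way +19 cannot be told apart from +18 with 1 added A. The ends at +18 (C) and +20 (G) are not open to that reading for a tail of A alone.

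The libraries held 1815545 to 6468532 counted reads each, of which 1342007 to 6103144 were untailed reads at the D site. The D site was the most frequent untailed end in 48 of 48 libraries. One member in one library had 49 to 16397 untailed reads (median 835.5), and the 7 members together 758 to 50927. The level of an end is given as its untailed reads in percent of the untailed D-site reads of the same library, that is, relative to mature 18S rRNA. The 95% Wilson interval reached 1.54% to 28.3% of the value to either side, and covers counting error only, since PCR copies were not told apart. The coefficient of variation over the 4 libraries of a group was 2.28% to 38.5%. A higher percent can come from more precursor ends or from fewer mature ones, and these cannot be told apart. Tests were made with edgeR's quasi-likelihood test on the untailed counts at the 29 positions other than D, with the D-site reads as library size. The p-values were adjusted by Benjamini-Hochberg over all 29 positions, and positions below an adjusted p of 0.05 were called. The SE given with a log2 fold change was derived from the test, as the size of the change divided by the square root of its F statistic. All 7 members passed the minimum of 10 reads in 4 libraries in each of the 20 comparisons. The comparisons share libraries, so they are not independent of each other.

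In WT total RNA all 7 ends were rare. The most frequent was +20, at 0.0258% ± 0.000927 (SD, n = 4), followed by +16 at 0.0213% ± 0.0024 and +17 at 0.0199% ± 0.00131. The ends at +14 (0.0147% ± 0.00107) and +15 (0.0143% ± 0.00137) overlapped each other, and so did +16 and +17. The lowest were +18, at 0.0106% ± 0.000598, and +19, at 0.00697% ± 0.000792, and each was separate from the end above it in the order. Together the 7 ends came to 0.114% ± 0.00452 of D, against 0.532% ± 0.0216 for A1 and 0.135% ± 0.0123 for A2. They were 7.78% ± 0.301 of all untailed ends from +1 to +22. The window was thus a trough between higher neighbours: +13 stood at 0.151% ± 0.0106 and +21 at 0.112% ± 0.0119.

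All 7 ends rose relative to D in hot3-2 total RNA, while 4 of them fell relative to A1 as given below, and no hot3-2 library overlapped a WT library at any of them. The end at +16 was the most frequent in hot3-2 and had the largest change. Its level in the 4 WT libraries, in replicate order, was 0.0185, 0.0209, 0.0216 and 0.0244% of D, and in the 4 hot3-2 libraries 0.221, 0.201, 0.267 and 0.268%. The lowest hot3-2 library thus lay far above the highest WT library. The log2 fold change at +16 was 3.49 ± 0.13 (SE; adjusted p = 2.08e-10, n = 4 per group). The end at +14, only 2 bases upstream, had the smallest change. Its level was 0.0145, 0.015, 0.0135 and 0.0161% in WT and 0.0626, 0.0672, 0.0718 and 0.0718% in hot3-2, again without overlap. The log2 fold change there was 2.21 ± 0.10 (adjusted p = 4.21e-10).

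The other members of the A run lay between these, with log2 fold changes of 3.0 ± 0.13 at +15 and 3.08 ± 0.12 at +17. The 3 members after the run had lower values: 2.32 ± 0.10 at +18, 2.39 ± 0.10 at +19 and 2.45 ± 0.09 at +20. In total RNA 7 of 7 members were called higher, beside 82.8% of all 29 positions. Libraries did not overlap at 7 of 7 members, beside 79.3% of all positions. The median log2 fold change was 2.45 over the members and 2.38 over all positions, so the rise as such is shared with most ends near the D site. Summed, the members came to 0.82% ± 0.0786 of D in hot3-2 total RNA. The neighbours moved unequally: 1.64 ± 0.08 at +13 and 2.50 ± 0.10 at +21. The exact permutation test, two-sided, gave p = 0.0286 at each member, the smallest that 4 against 4 libraries allow.

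**Figure D1:**
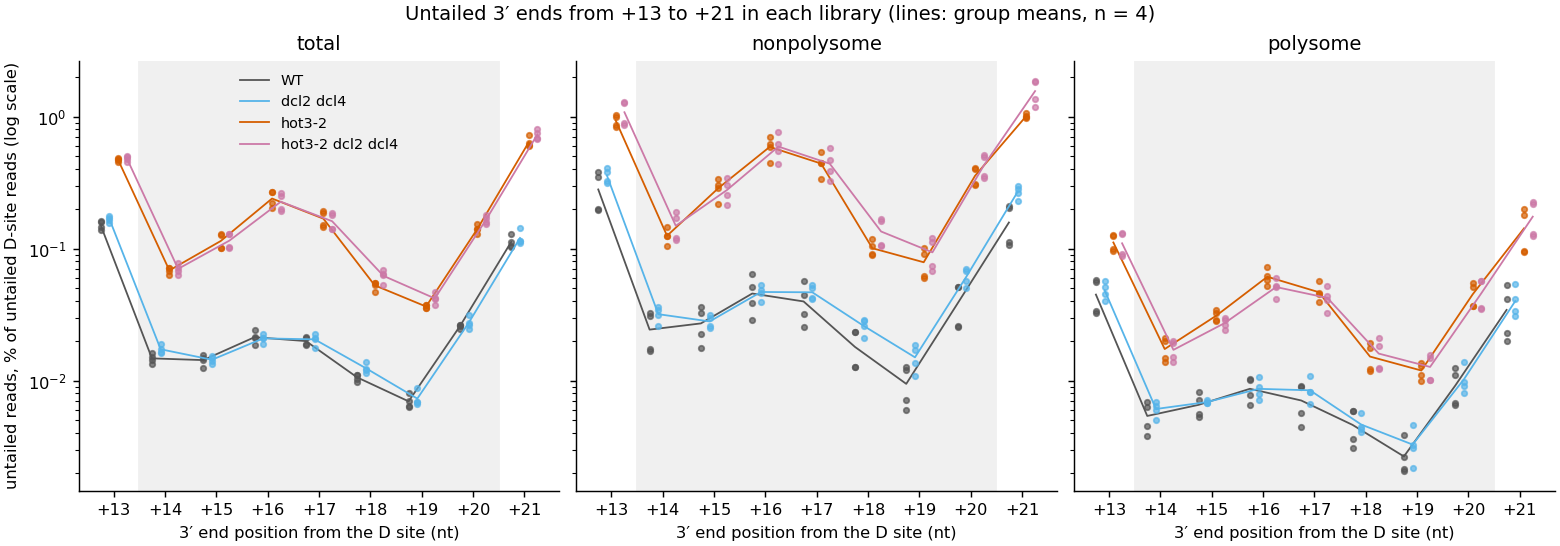
Untailed reads at +13 to +21 in percent of untailed D-site reads (log scale), by distance of the 3′ end from the D site, for the 3 fractions. Points are libraries, lines are group means (n = 4) and the shaded span marks +14 to +20. Both genotypes with hot3-2 lie above both genotypes without it at every one of these positions, and +19 is the lowest member in each group.

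The same ends rose relative to D in the gradient fractions of hot3-2, with the directions relative to A1 given below. In nonpolysomal RNA +16 stood at 0.0507, 0.0287, 0.0643 and 0.039% of D in WT and at 0.588, 0.448, 0.699 and 0.622% in hot3-2. These were the highest levels of any fraction, and the groups did not overlap. The log2 fold change at +16 was 3.69 ± 0.29 (adjusted p = 6.24e-07), and the other members ranged down to 2.36 ± 0.27 at +14. In polysomal RNA +16 stood at 0.0078, 0.0102, 0.00656 and 0.0101% in WT and at 0.052, 0.0578, 0.062 and 0.073% in hot3-2. The log2 fold change was 2.82 ± 0.24 (adjusted p = 6.09e-10), and again +14 had the lowest, 1.68 ± 0.26. All 7 members were called higher in either fraction, beside 93.1% of all positions in nonpolysome and 75.9% in polysome. The libraries of hot3-2 and WT did not overlap at any member in either fraction, beside 93.1% and 75.9% of all positions. The members' median was 3.21 in nonpolysome, where that of all positions was 2.68. In polysome the medians were 2.24 and 1.97.

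The WT gradient libraries differed by replicate number. At +16 replicates 1 and 3 lay above replicates 2 and 4 in nonpolysome and below them in polysome, although no label gives these pairs a batch. Ratios within these pairs, here and below, describe the spread of the libraries and are not tests. Within replicates 1 and 3 the log2 ratio of hot3-2 to WT at +16 in nonpolysome was 3.48, and within replicates 2 and 4 it was 3.98. In polysome these were 2.99 and 2.69. Since the groups did not overlap at any of the 7 members in any of the 3 fractions, the hot3-2 library was necessarily above the WT library of the same number in 4 of 4 pairs.

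The order of the ends differed between genotypes. By group mean, the end at +20 was the highest member in WT total and polysome and in all 3 fractions of dcl2 dcl4. By the same measure, +16 was the highest in WT nonpolysome and in all 6 groups that carry hot3-2. In WT polysome, however, +20 lay above +16 in only 2 of 4 libraries. In hot3-2 dcl2 dcl4 polysome +16 lay above +20 in 3 of 4. In total RNA +16 made up 18.7% of the member reads in WT and 29.1% in hot3-2, as means of 4 libraries. The shares of +14 were 13% and 8.35%, and those of +20 were 22.7% and 17.3%. No library of hot3-2 overlapped a WT library in these 3 shares. In hot3-2 total RNA the order was +16 (0.239% ± 0.0335 of D), +17 (0.169% ± 0.0246), +20 (0.141% ± 0.00955), +15 (0.114% ± 0.0156), +14 (0.0684% ± 0.00439), +18 (0.0527% ± 0.00377) and +19 (0.0364% ± 0.0012). Of the neighbours in that order, +17 and +20 overlapped and the other 5 pairs did not. The end at +18 was second lowest and +19 lowest in all 12 groups.

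**Figure D2:**
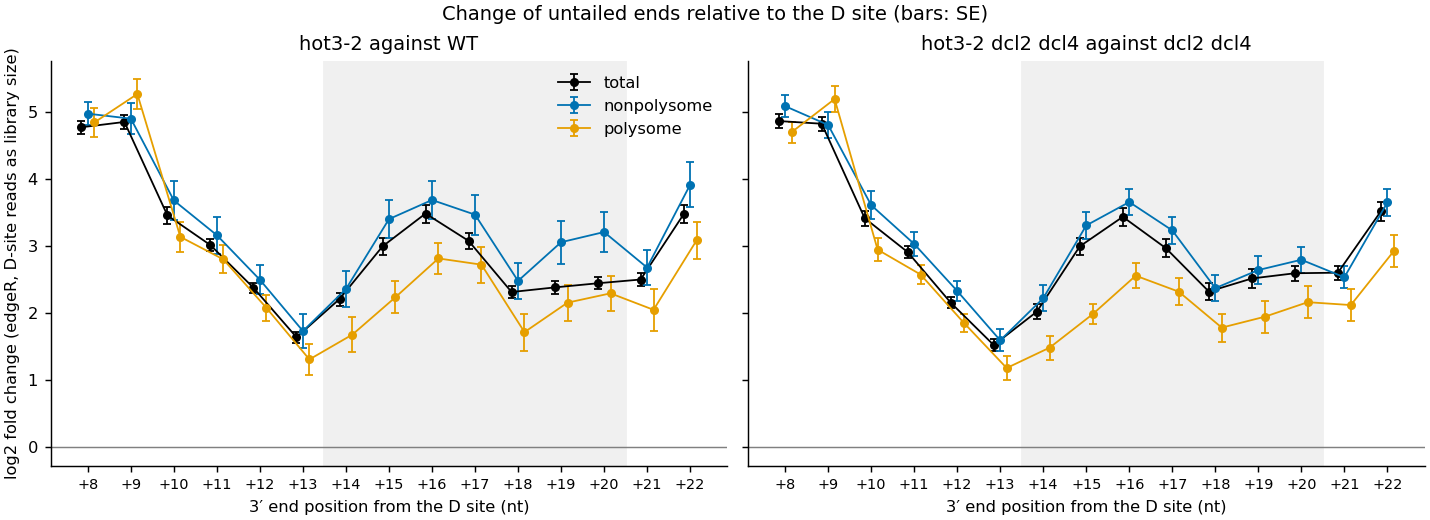
Log2 fold change of untailed ends from +8 to +22 relative to D-site reads (edgeR, ± SE), for hot3-2 against WT and for hot3-2 dcl2 dcl4 against dcl2 dcl4, n = 4 libraries per group, with +14 to +20 shaded. Values fall from +9 to a minimum at +13, rise to a second maximum at +16 and fall again to +18, in all 3 fractions and both backgrounds.

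The A1 ends rose as well, so the members were also scaled to the untailed A1 reads of the same library. This reference is a sum of ends that rose unequally, as given below. This scaling lowered the median log2 fold change of all positions by 2.74 to 2.95 in the 6 comparisons with hot3-2. On that scale the members divided. In hot3-2 total RNA +16 was higher than in WT (0.64 ± 0.08, adjusted p = 4.09e-05) and so was +17 (0.23 ± 0.07, adjusted p = 0.0144). The end at +15 was not called (0.15 ± 0.07, adjusted p = 0.0886). The ends at +14 (-0.64 ± 0.06), +18 (-0.53 ± 0.09), +19 (-0.46 ± 0.10) and +20 (-0.40 ± 0.08) were lower, with adjusted p of at most 0.00228. Thus 2 members rose and 4 fell on the A1 scale, beside 27.6% of all positions called higher and 62.1% lower. In nonpolysome +15, +16, +17 and +20 were higher, from 0.33 at +20 to 0.78 at +16, and +14 and +18 lower, beside 37.9% and 44.8% of all positions. In polysome no member was called higher and 5 were lower, from -0.62 at +20 to -1.25 at +14, beside 10.3% and 69%. There +16 (-0.12 ± 0.08) and +17 (-0.19 ± 0.11) did not pass the test. The A1 neighbour +13 fell on this scale in all 3 fractions (-1.20 in total), while +22 of A2 rose in total (0.62).

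With TMM factors added, which centre the positions on each other, +15, +16 and +17 were called higher in hot3-2 than in WT in all 3 fractions. On that scale the log2 fold change at +16 was 1.12 for total, 1.03 for nonpolysome and 0.84 for polysome. The ends at +14 and +18 lay below 0 in each fraction, at -0.15 and -0.047 in total. The A1 ends did not move alike: in total they were 2.41 at +8 and 2.49 at +9, but 0.014 at +12 and -0.72 at +13. A fall relative to A1 is thus a fall relative to their sum and not to each of them. In total 3 members were called higher and 0 lower, beside 34.5% and 41.4% of all positions. In nonpolysome 5 were higher and 1 (+14) lower, beside 44.8% and 37.9%, and in polysome 4 higher and 1 (+14) lower, beside 34.5% and 37.9%. A scaling moves all positions of a comparison by about the same amount, so +16 was the highest member and +14 the lowest of hot3-2 against WT under D-site, A1 and TMM scaling alike.

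**Figure D3:**
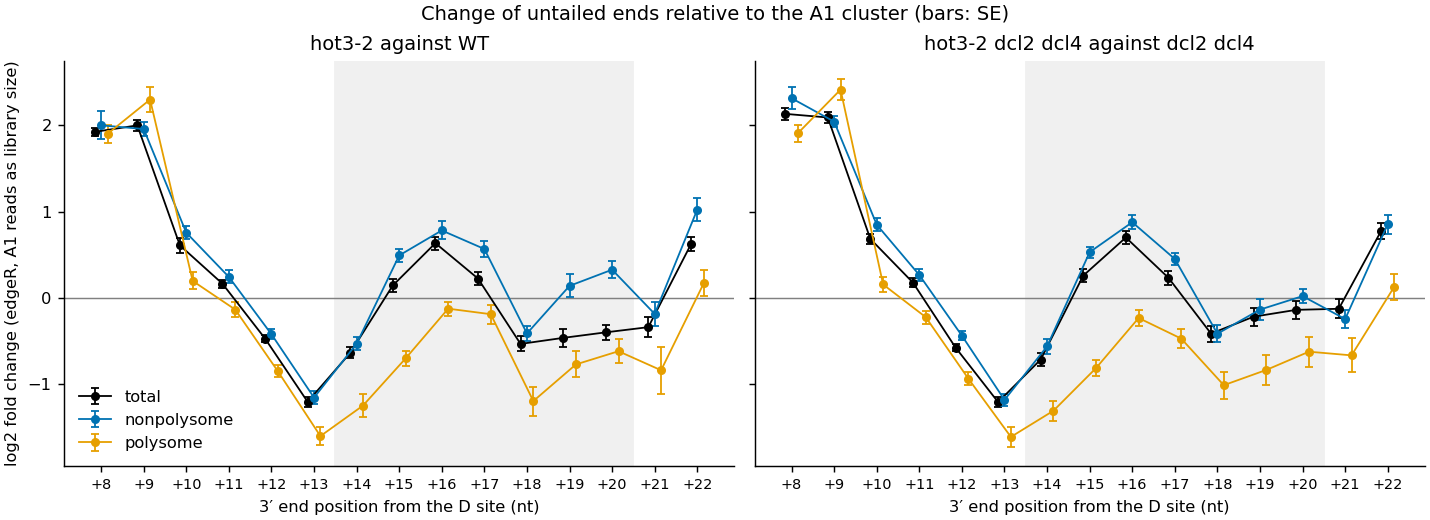
The same comparisons with the untailed A1 reads (+8 to +13) as library size, log2 fold change ± SE, n = 4 libraries per group, +14 to +20 shaded. In total and nonpolysome +16 lies above 0 with +14 and +18 below it on either side, and in polysome all 7 members lie below 0.

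The same comparison was made in plants without DCL2 and DCL4. Against dcl2 dcl4, all 7 members rose relative to D in hot3-2 dcl2 dcl4 in each fraction, although relative to A1 some fell as given below, beside 75.9% (total), 93.1% (nonpolysome) and 82.8% (polysome) of all positions. At +16 the level in total RNA was 0.019, 0.0211, 0.0227 and 0.0209% of D in dcl2 dcl4 and 0.199, 0.194, 0.251 and 0.263% in hot3-2 dcl2 dcl4. The groups did not overlap there, nor at any other member in any fraction (background 75.9%, 89.7% and 79.3% of all positions). The log2 fold change at +16 was 3.44 ± 0.13 in total, 3.66 ± 0.20 in nonpolysome and 2.56 ± 0.19 in polysome. As in the comparison with WT, +16 had the largest value of the members and +14 the smallest in each fraction. Scaled to A1, +15 (0.26), +16 (0.70) and +17 (0.23) rose and +14 and +18 fell in total, beside 34.5% and 51.7% of all positions. On that scale all 7 fell in polysome, beside 82.8%.

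The difference between the hot3-2 effect in the dcl2 dcl4 background and that in the WT background was tested directly. It was called at 0 of 7 members in each fraction, and at 0 of all 29 positions (0%), and DESeq2 also called 0 members. At an unadjusted p under 0.05 there were 0, 0 and 0 members in total, nonpolysome and polysome. At +16 the difference was -0.05 ± 0.17 in total, -0.03 ± 0.32 in nonpolysome and -0.26 ± 0.26 in polysome. The largest difference of any member was -0.19 ± 0.12 at +14 in total, -0.42 ± 0.39 at +19 in nonpolysome (with -0.41 ± 0.34 at +20) and -0.40 ± 0.32 at +17 in polysome. With these errors, differences of that size could not be told from 0.

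Between hot3-2 dcl2 dcl4 and hot3-2 itself no member was called in the unpaired test, beside 0% of all positions in total and nonpolysome and 6.9% in polysome. At an unadjusted p under 0.05 there were 2, 0 and 0 members, and DESeq2 also called 0. No member was without overlap between the groups in any fraction (background 3.45% of all positions lower in total, 6.9% higher and 6.9% lower in nonpolysome and 6.9% lower in polysome). In total and polysome, deviations of libraries of the same replicate number correlated above 0.1, with a lowest r of 0.188 and 0.149. With the replicate number as a block some calls appeared. In total +18 (0.24 ± 0.04, adjusted p = 0.00445), +19 (0.20 ± 0.06, adjusted p = 0.0241) and +20 (0.23 ± 0.04, adjusted p = 0.00307) were higher in the triple mutant. The end at +16 was lower there (-0.08 ± 0.03, adjusted p = 0.039). Of all positions 48.3% were called higher and 10.3% lower in that fit, so calls were also made at many other ends. In polysome +16 was lower (-0.26 ± 0.04, adjusted p = 0.0257), beside 3.45% of all positions. In total +18, +19 and +20 were higher in the triple mutant in 4 of 4 pairs of the same number and +16 and +17 in 0 of 4.

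Without hot3-2, dcl2 dcl4 also had no member called against WT in the unpaired test, and 0% of all positions in each fraction. At an unadjusted p under 0.05 there were 2, 2 and 0 members in total, nonpolysome and polysome, and DESeq2 called 0. In total RNA every dcl2 dcl4 library lay above every WT library at 2 members, +14 (0.0173, 0.0189, 0.0163 and 0.0166% of D in dcl2 dcl4, with the WT values above) and +18 (0.012, 0.0138, 0.0115 and 0.0123% against 0.0111, 0.011, 0.00982 and 0.0104% in WT), beside 17.2% of all positions. No member was without overlap in the other fractions. Deviations of same-numbered libraries correlated above 0.1 in each fraction here too. The lowest r was 0.145 in total, 0.555 in nonpolysome and 0.230 in polysome, so the pairing is weak in places. In the fit blocked by number, +14 (0.23 ± 0.06, adjusted p = 0.027) and +18 (0.23 ± 0.07, adjusted p = 0.027) were higher in dcl2 dcl4 total RNA, beside 20.7% of all positions. In nonpolysome +18 (0.58 ± 0.16, adjusted p = 0.0325), +19 (0.70 ± 0.12, adjusted p = 0.0145) and +20 (0.74 ± 0.16, adjusted p = 0.0235) were higher, beside 20.7%. In polysome no member was called with the block. These log2 fold changes were all under 1, against at least 1.68 for hot3-2 against WT.

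Relative to D, all 7 ends were more frequent in nonpolysome than in polysome in every genotype, although relative to A1 5 of them were less frequent in WT and in dcl2 dcl4. At +16 the mean level in WT was 0.0457% of D in nonpolysome, 0.0213% in total and 0.00867% in polysome. In hot3-2 these were 0.589%, 0.239% and 0.0612%. The fractions did not overlap between nonpolysome and polysome at any member in any genotype. This is not particular to the members, since most of all positions were also called higher in nonpolysome. All 7 members were called higher in nonpolysome, beside 86.2% of all positions in WT, 96.6% in hot3-2, 96.6% in the triple mutant and 89.7% in dcl2 dcl4. At +16 the log2 fold change was 2.40 ± 0.29 in WT, 3.27 ± 0.20 in hot3-2, 3.53 ± 0.22 in the triple mutant and 2.43 ± 0.18 in dcl2 dcl4. In the same order the members' medians were 2.07, 2.98, 3.21 and 2.43, beside 1.96, 2.72, 2.83 and 2.04 over all positions. Total RNA was extracted from the lysate that was loaded on the gradient.

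The size of this fraction difference varied between replicates. In WT the log2 ratio at +16 was 3.0 within replicates 1 and 3 and 1.73 within replicates 2 and 4. In hot3-2 it was 3.50 and 3.03. The order in WT follows from the levels by which these pairs were described above, and no label sets the pairs. Since these fractions did not overlap, the direction was necessarily the same in 4 of 4 pairs at every member in every genotype. Nonpolysome was also above total at 7 of 7 members in dcl2 dcl4, hot3-2 and hot3-2 dcl2 dcl4, beside 93.1%, 96.6% and 100% of all positions. In WT 5 of 7 were called (+14 to +18), beside 75.9%. There +19 (0.44 ± 0.24, adjusted p = 0.105) and +20 (0.57 ± 0.25, adjusted p = 0.0541) did not pass. Both passed without WT nonpolysome replicate 2 or replicate 4, and +14 was lost without WT nonpolysome replicate 1 (0.59, adjusted p = 0.0512). Within replicates 2 and 4 the WT ratio at +19 was -0.13, and within replicates 1 and 3 it was 0.87.

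**Figure D4:**
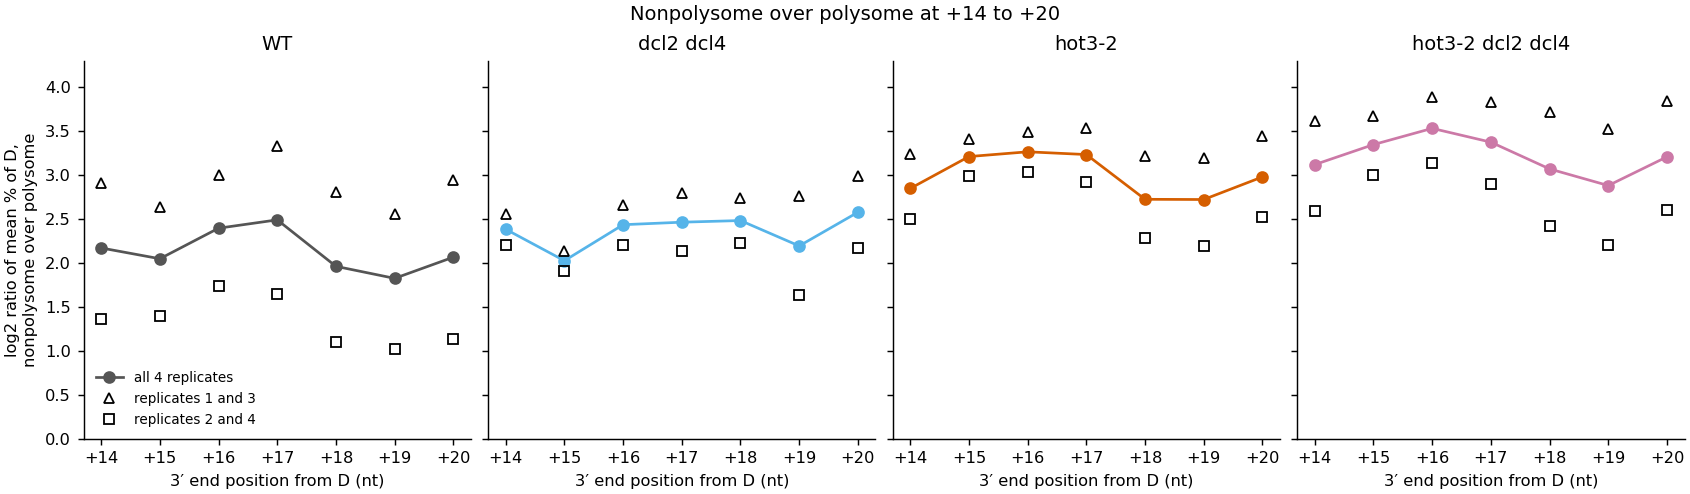
Log2 ratio of mean percent of D in nonpolysome over polysome at +14 to +20, by genotype. Filled points use all 4 replicates, triangles replicates 1 and 3 and squares replicates 2 and 4. Every ratio is above 0, and replicates 1 and 3 lie above replicates 2 and 4 in each genotype.

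Whether the hot3-2 effect differed between nonpolysome and polysome was tested over the 16 libraries of WT and hot3-2. The fit did not pair libraries by number. Deviations of same-numbered libraries of the fractions correlated in hot3-2 (r of 0.758 to 0.856) but not in WT (-0.343 to -0.143), and the p-values ignore this. The effect was larger in nonpolysome at +15, by 1.17 ± 0.32 on the log2 scale (adjusted p = 0.0192). The level of +15 in nonpolysome was 0.0323, 0.0176, 0.0361 and 0.0225% in WT and 0.305, 0.218, 0.338 and 0.288% in hot3-2. In polysome it was 0.00562, 0.00816, 0.00534 and 0.00709% in WT and 0.0282, 0.029, 0.0323 and 0.0344% in hot3-2. The other 6 members had differences of 0.68 ± 0.36 at +14 to 0.91 ± 0.39 at +20 and were not called, with adjusted p from 0.0617 to 0.123. Of all 29 positions 17.2% were called. The call at +15 was lost with all counted reads as library size (0.93, adjusted p = 0.0741). Within replicates 1 and 3 the difference at +15 was 0.77, and within replicates 2 and 4 it was 1.60. DESeq2 called 2 members. Leaving out 1 library gave 1 to 5 called members, with 5 without WT nonpolysome replicate 3 and 2 without WT polysome replicate 3, hot3-2 polysome replicate 4 or hot3-2 nonpolysome replicate 2.

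Scaled to A1, the fraction difference ran in opposite directions with and without hot3-2. In WT 5 members (+14, +15, +18, +19 and +20) were lower in nonpolysome than in polysome relative to A1, from -0.43 at +14 to -0.77 at +19, beside 69% of all positions. In hot3-2 4 members (+15, +16, +17 and +20) were higher, from 0.42 at +20 to 0.70 at +16, beside 31%. The difference between these effects was called at 7 of 7 members on the A1 scale, from 0.72 ± 0.15 at +14 to 1.19 ± 0.11 at +15, beside 69% of all positions. In dcl2 dcl4 5 members were lower (beside 69%) and in hot3-2 dcl2 dcl4 6 were higher (beside 44.8%), and the difference between these was not tested. As a share of all untailed ends from +1 to +22, the members made up 8.92% ± 1.55 in nonpolysome and 4.5% ± 0.583 in polysome of WT. The hot3-2 shares were 14.9% ± 0.74 and 8.45% ± 0.243.

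The deposited counts also split reads at each end into untailed and tailed, and this split varied between adjacent bases. In WT total RNA 67.1% of the reads at +17 carried a tail, as a mean of 4 libraries. The tailed share was 6.51% at +14, 20.5% at +15, 22.8% at +16, 4.71% at +18, 12.9% at +19 and 11.4% at +20. The end at +17, the last A before C, was thus the 1 member with more tailed than untailed reads, and this held in all 12 groups. A tail of A on an end at +13 to +16 that ran past +17 would be counted as tailed at +17. Likewise a longer tail of A at +18 would count at +19, and a tail of A at +20 at +21 or +22. These shares thus cannot be read as tailing rates of each end. In hot3-2 total RNA the mean shares were 76.3% at +17, 28.6% at +20 and 10% at +14. At +17 the 4 hot3-2 libraries lay between 73.3% and 78.6% and the 4 WT libraries between 64.8% and 69.2%, without overlap. At +14 the ranges overlapped, at 7.47 to 11.8% in hot3-2 and 5.71 to 7.88% in WT. With reads of all tail lengths counted, the log2 fold change of hot3-2 against WT in total was 3.60 ± 0.16 at +16 and 3.58 ± 0.19 at +17.

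Since an A added at +13 reads as +14 to +17, tails were read at +12, where the next base is C and does not match an added A. In WT total RNA, +12 ends with tails of 1, 2, 3 and 4 nt came to 7.72, 7.34, 0.287 and 0.142% of untailed +12 ends. The untailed ends at +14, +15, +16 and +17 came to 9.77, 9.49, 14.1 and 13.3% of untailed +13 ends. In hot3-2 total RNA the tails at +12 came to 14.5, 18.6, 0.864 and 0.572%. The ends at +14 to +17 came to 14.5, 24.2, 50.8 and 35.7%. At 1 nt the order differed between groups. The ends at +14 lay above the 1-nt tails at +12 without overlap in 4 of 12 groups (total and polysome of WT and dcl2 dcl4), and below them in 2 (nonpolysome and polysome of hot3-2). In the other 6 groups, hot3-2 total among them, the libraries overlapped. Tails of 3 and 4 nt at +12 came to at most 1.69% in any library of the 12 groups, while +16 and +17 were at least 11.3% of +13 in each. The counts give the length of a tail and not its bases. The study's mapping allowed mismatches, so tails at +12 that were placed at later positions would be missing from these values. With 1 mismatch at +13, a tail of 3 or 4 A at +12 could be counted as an untailed end at +15 or +16. The lengths of 3 and 4 nt are thus open to this loss, and the difference there cannot be read apart from the mapping. Tails at +12 need not equal those at +13, and their part in the levels of +14 to +17 was not tested further.

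**Figure D5:**
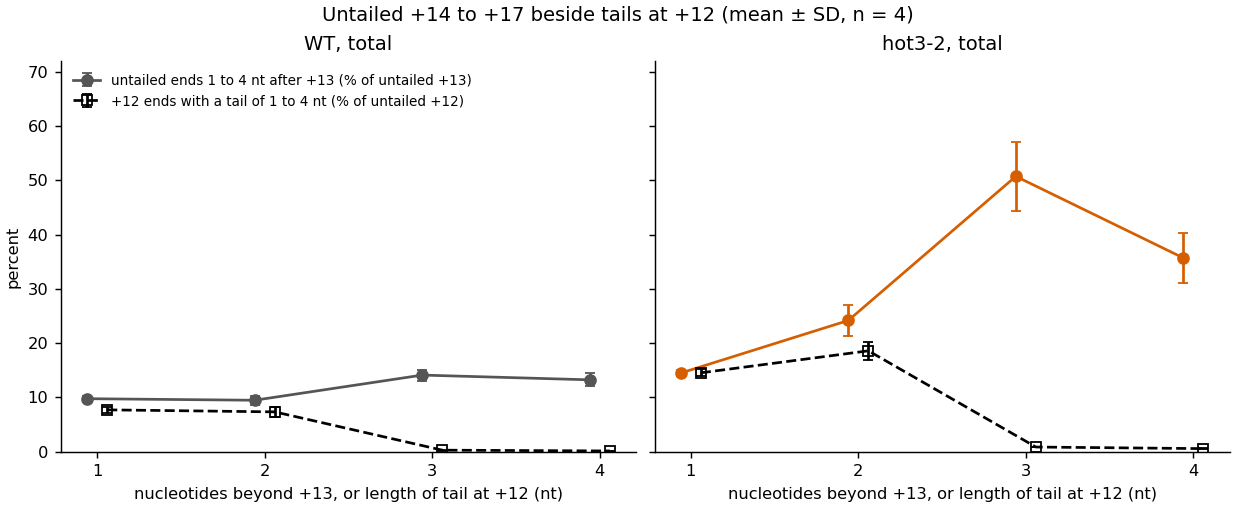
Untailed ends 1 to 4 nt beyond +13 (+14 to +17) in percent of untailed +13 ends, beside ends at +12 with a tail of 1 to 4 nt in percent of untailed +12 ends, in total RNA of WT and hot3-2 (mean ± SD, n = 4). The curves lie near each other at 1 nt and part at 3 and 4 nt, where tails at +12 are the lower curve. Tails of A of these lengths at +12 may be undercounted, since the mapping allowed mismatches.

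Over the 12 group means of log2 percent of D, each member's pattern was set beside those of the positions outside the window. The positions share libraries and the same D-site divisor, so the correlations are given as a description, and even the least alike position reached r of 0.51 to 0.57. The members of the A run from +15 to +17 were most like +10 of A1, with Pearson's r of 0.994, 0.998 and 0.996. The end at +14 was most like +12 (r = 0.998). The end at +18 was most like +21 (r = 0.997), +19 most like +22 (r = 0.995) and +20 most like +21 (r = 0.993). Among positions outside the window, the 4 upstream members thus resembled A1 positions most and the 3 downstream members A2 positions. With members included, +18 was most like +14 (r = 0.99702, against 0.996653 for +21). The division is thus not sharp, and the differences in r were not tested.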

How the data were processed

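3′ ends were measured in 48 libraries of Arabidopsis seedlings. The authors deposited raw counts of reads for each of 30 end positions and tail lengths of 0 to 10 nt, in 330 lines per library and with no normalization. Before deposit they kept molecules with the mature 18S 5′ end, amplified them by PCR without molecular identifiers, trimmed the reads, mapped them to their own 45S rDNA reference and counted ends with an in-house script. The submitters' processing notes name cutadapt 4.2 and STAR 2.7.10b. Each read was placed at 1 rDNA copy, so copies were not told apart.

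Groups came from the sample titles, and the study calls the 4 libraries biological replicates for total and nonpolysome of WT, hot3-2 and the triple mutant. For the other 6 groups this is not given in the sources used here, so p-values there measure the spread between libraries, which may be technical. All 72 replicate pairs differed beyond counting noise over the 30 positions by a chi-square test. Untailed counts were tested with edgeR 4.0.16 in R 4.3.3, on the 8 libraries of each of 20 comparisons and on 16 libraries for each of 4 differences of effects, after testing the script on simulated data. Alternatives were all counted reads, A1 reads or TMM for scaling, no filter, all tail lengths, DESeq2 1.42.0, an exact permutation test, the replicate number as a block and leaving out each library. Replicate numbers were taken to pair libraries where each same-numbered pair's deviations from the group means correlated above 0.1. This held for hot3-2 dcl2 dcl4 against hot3-2 in total and polysome, against dcl2 dcl4 in nonpolysome, for dcl2 dcl4 against WT in 3 fractions, and for nonpolysome against polysome or total in dcl2 dcl4 and hot3-2.

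All 7 members were named. Values per library were given for the members with the highest level in hot3-2 total and with the largest and smallest change there, and for +15 because it was the 1 call in a difference of effects, chosen after its values were seen. Positions +13 and +21, A1 and A2 were named for comparison. The members and lists were chosen with earlier results of these data known. Nothing was left out.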

Additional observations from a re-analysis of the deposited data

Results flagged for a closer look

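The level of +19 in dcl2 dcl4 total RNA was 0.00886% of D in replicate 2, apart from the other 3 libraries of the group, with a gap of 0.869 of the group's range. Of the 84 groups of 4 libraries examined for the 7 members this was the 1 that passed Dixon's 95% limit, and chance alone passes about 1 in 20.

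The hot3-2 effect at +15 was larger in nonpolysome than in polysome by 1.17 on the log2 scale (adjusted p = 0.0192, edgeR, 16 libraries). Of the 28 differences of effects tested at the members it was the 1 called. It was 0.77 within replicates 1 and 3 and 1.60 within replicates 2 and 4.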

How the results depend on the processing

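With all counted reads as library size, without the low-count filter, with all tail lengths and with DESeq2, all comparisons between 2 groups kept the number of members called within 1.5 times. The exact permutation test kept the count of members in the comparisons with calls, but after adjustment it can pass only where most positions separate, so its 0 in the others says nothing. The difference of the hot3-2 effect between nonpolysome and polysome did not: 1 member was called, 0 with all counted reads, 7 with the A1 reads and 2 with DESeq2. Leaving out 1 library gave 1 to 5 there. Leaving out 1 library changed no other count beyond 1.5 times. With the untailed A1 reads as library size, the members called were 5 in place of 7 for hot3-2 against WT in polysome (0 higher, 5 lower), 7 in place of 7 for hot3-2 dcl2 dcl4 against dcl2 dcl4 in polysome (0 higher, 7 lower), 1 in place of 0 for hot3-2 dcl2 dcl4 against hot3-2 in nonpolysome, 1 in place of 0 for dcl2 dcl4 against WT in nonpolysome, 5 in place of 7 for nonpolysome against polysome in WT (0 higher, 5 lower), 5 in place of 7 for nonpolysome against polysome in dcl2 dcl4 (0 higher, 5 lower), 4 in place of 7 for nonpolysome against polysome in hot3-2, 2 in place of 5 for nonpolysome against total in WT (0 higher, 2 lower), 2 in place of 7 for nonpolysome against total in dcl2 dcl4, 4 in place of 7 for nonpolysome against total in hot3-2 and 4 in place of 7 for nonpolysome against total in hot3-2 dcl2 dcl4. On that scale the log2 fold changes that turned below 0 were as follows. It was -0.64 at +14, -0.53 at +18, -0.46 at +19 and -0.40 at +20 for hot3-2 against WT in total. The comparison of hot3-2 against WT in nonpolysome gave -0.53 at +14 and -0.41 at +18. Setting hot3-2 against WT in polysome gave -1.25 at +14, -0.70 at +15, -0.12 at +16, -0.19 at +17, -1.19 at +18, -0.77 at +19 and -0.62 at +20. For hot3-2 dcl2 dcl4 against dcl2 dcl4 in total the test gave -0.71 at +14, -0.41 at +18, -0.22 at +19 and -0.14 at +20. It was -0.56 at +14, -0.41 at +18 and -0.13 at +19 for hot3-2 dcl2 dcl4 against dcl2 dcl4 in nonpolysome. The comparison of hot3-2 dcl2 dcl4 against dcl2 dcl4 in polysome gave -1.31 at +14, -0.81 at +15, -0.23 at +16, -0.47 at +17, -1.01 at +18, -0.83 at +19 and -0.62 at +20. Setting nonpolysome against polysome in WT gave -0.43 at +14, -0.56 at +15, -0.21 at +16, -0.090 at +17, -0.62 at +18, -0.77 at +19 and -0.53 at +20. For nonpolysome against polysome in dcl2 dcl4 the test gave -0.32 at +14, -0.69 at +15, -0.27 at +16, -0.24 at +17, -0.22 at +18, -0.52 at +19 and -0.12 at +20. It was -0.21 at +14, -0.0015 at +15, -0.17 at +18, -0.49 at +19 and -0.38 at +20 for nonpolysome against total in WT. The comparison of nonpolysome against total in dcl2 dcl4 gave -0.076 at +14. Setting nonpolysome against total in hot3-2 gave -0.11 at +14 and -0.048 at +18. With TMM factors added, the members called were 3 in place of 7 for hot3-2 against WT in total, 1 in place of 0 for hot3-2 dcl2 dcl4 against hot3-2 in nonpolysome, 1 in place of 0 for dcl2 dcl4 against WT in nonpolysome, 0 in place of 5 for nonpolysome against total in WT, 1 in place of 7 for nonpolysome against total in dcl2 dcl4, 2 in place of 7 for nonpolysome against total in hot3-2 (0 higher, 2 lower) and 1 in place of 7 for nonpolysome against total in hot3-2 dcl2 dcl4. With these factors the log2 fold changes that turned below 0 were as follows. For hot3-2 against WT in total the test gave -0.15 at +14 and -0.047 at +18. It was -0.28 at +14 and -0.16 at +18 for hot3-2 against WT in nonpolysome. The comparison of hot3-2 against WT in polysome gave -0.28 at +14 and -0.23 at +18. Setting hot3-2 dcl2 dcl4 against dcl2 dcl4 in total gave -0.18 at +14. For hot3-2 dcl2 dcl4 against dcl2 dcl4 in nonpolysome the test gave -0.23 at +14 and -0.082 at +18. It was -0.11 at +14 for hot3-2 dcl2 dcl4 against dcl2 dcl4 in polysome. The comparison of nonpolysome against total in WT gave -0.015 at +14. Setting nonpolysome against total in dcl2 dcl4 gave -0.040 at +14. For nonpolysome against total in hot3-2 the test gave -0.28 at +14, -0.22 at +18 and -0.066 at +19. It was -0.10 at +14, -0.070 at +18 and -0.033 at +19 for nonpolysome against total in hot3-2 dcl2 dcl4. With the replicate number as a block, the members called were 4 in place of 0 for hot3-2 dcl2 dcl4 against hot3-2 in total (3 higher, 1 lower), 2 in place of 0 for hot3-2 dcl2 dcl4 against hot3-2 in nonpolysome, 1 in place of 0 for hot3-2 dcl2 dcl4 against hot3-2 in polysome (0 higher, 1 lower), 2 in place of 0 for dcl2 dcl4 against WT in total and 3 in place of 0 for dcl2 dcl4 against WT in nonpolysome. In all these the cause was not tested, but either scaling by its construction takes out the part of a change that is shared with A1 or with most positions. TMM lowered the median of all positions by 1.60 to 2.61 in the 6 comparisons with hot3-2. The block changed no other count of members beyond 1.5 times. In hot3-2 dcl2 dcl4 against hot3-2 in nonpolysome the libraries share only a number, and the block there called +19 (0.24) and +20 (0.25). Depth limited +19 in polysome most, where 1 library held 49 reads.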
